A study of Mus musculus with 20 samples.

Results

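Cdkn1c, Phlda2, Grb10, Gnas, Plagl1, Peg3, Mest, Peg10, Sgce and Slc38a4 are 10 imprinted genes that act on growth or placental function. They were taken by gene name, and all 10 were found among the 53560 rows of the expression table and among the 20462 genes of each histone mark table. The study depleted p150, which Chaf1a encodes and which is the largest protein of the CAF-1 histone chaperone, with CRISPR/Cas9 in TL1 mouse embryonic stem (ES) cells. The knockout (KO) and wild-type (WT) cells were compared as ES cells and as embryoid bodies (EBs). The 4 groups were KO EBs, WT EBs, KO ES cells and WT ES cells, all of the TL1 line. ES cells were kept in serum medium with LIF, the cytokine that holds them undifferentiated, and EBs, aggregates in which ES cells differentiate, in that medium with LIF left out. RNA-seq had 2 libraries in each group, while H3K27me3 and H3K4me3 ChIP-seq had 1 library each. The number of knockout clones and the origin of the replicates are not given in the sources used here, so p-values reflect library-to-library spread alone, which may be technical.

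Imprinted genes are expressed mainly from the allele inherited from one parent, an asymmetry set at most loci by DNA methylation laid down in the germ line. At some loci Polycomb proteins and the H3K27me3 mark they write take part. CAF-1 places histones H3 and H4 on newly replicated DNA, and H3K4me3 marks active or poised promoters. In the mouse Cdkn1c, Phlda2 and, outside neurons, Grb10 are expressed from the maternal allele, and each restrains growth of the embryo or placenta. Gnas encodes the stimulatory G protein alpha subunit, which most tissues express from both alleles, together with transcripts of other promoters that are imprinted in either direction. Plagl1, Peg3, Mest, Peg10, Sgce and Slc38a4 are expressed from the paternal allele. None of the values below is resolved by allele.

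RefSeq promoter windows on GRCm38.p6, the mm10 build, were matched for 7 of the 10 genes. A window covers 250 bases before the annotated start and 50 bases after it. One window is shown for each of 5 of these genes, and the windows of Plagl1 and Gnas are not shown. Where RefSeq gives several windows, the one shown is the richest in CG or, for equal counts, the most upstream. Between KO and WT EBs, with 1 library each, H3K27me3 was past 2-fold lower over Grb10 and Phlda2 and H3K4me3 over Mest, while neither mark was past 2-fold over Peg3 and Slc38a4. Capitals mark each CG dinucleotide, the site of DNA methylation. Letters run 5′ to 3′ along the gene's own strand.
Grb10: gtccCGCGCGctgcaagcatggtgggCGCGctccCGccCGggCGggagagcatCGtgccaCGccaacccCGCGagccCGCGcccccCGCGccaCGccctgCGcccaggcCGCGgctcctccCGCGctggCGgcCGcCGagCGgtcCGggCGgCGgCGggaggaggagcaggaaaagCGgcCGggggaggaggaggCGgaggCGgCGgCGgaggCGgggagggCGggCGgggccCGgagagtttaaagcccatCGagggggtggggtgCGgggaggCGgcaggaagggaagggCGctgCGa
Phlda2: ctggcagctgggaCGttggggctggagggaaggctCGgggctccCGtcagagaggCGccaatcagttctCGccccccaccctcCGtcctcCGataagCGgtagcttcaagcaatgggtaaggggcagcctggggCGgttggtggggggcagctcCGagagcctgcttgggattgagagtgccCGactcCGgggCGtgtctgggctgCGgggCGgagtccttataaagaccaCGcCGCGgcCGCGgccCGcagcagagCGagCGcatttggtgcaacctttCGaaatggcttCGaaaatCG
Mest: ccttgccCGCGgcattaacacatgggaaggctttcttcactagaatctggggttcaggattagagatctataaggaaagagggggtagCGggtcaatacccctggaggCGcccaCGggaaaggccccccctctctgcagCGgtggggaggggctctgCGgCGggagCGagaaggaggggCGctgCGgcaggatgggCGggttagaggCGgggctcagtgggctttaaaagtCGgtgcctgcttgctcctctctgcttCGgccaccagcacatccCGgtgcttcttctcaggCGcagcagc
Peg3: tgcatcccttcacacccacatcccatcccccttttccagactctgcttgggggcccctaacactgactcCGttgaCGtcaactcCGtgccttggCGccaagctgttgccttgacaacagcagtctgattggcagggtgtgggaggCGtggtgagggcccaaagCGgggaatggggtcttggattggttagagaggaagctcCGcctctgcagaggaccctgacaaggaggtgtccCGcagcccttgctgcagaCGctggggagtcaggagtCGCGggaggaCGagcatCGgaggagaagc
Slc38a4: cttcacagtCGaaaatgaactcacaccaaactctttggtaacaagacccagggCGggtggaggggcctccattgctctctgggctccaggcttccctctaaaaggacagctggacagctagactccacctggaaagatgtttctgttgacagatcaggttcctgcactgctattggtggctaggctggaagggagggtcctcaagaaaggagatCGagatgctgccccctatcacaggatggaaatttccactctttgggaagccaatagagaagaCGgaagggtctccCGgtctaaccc
The Grb10 window at chr11:12037371-12037670, minus strand, held 45 CG, and 98.1% of the 32817 RefSeq promoter windows held fewer. The Phlda2 window at chr7:143502475-143502774, minus strand, held 26. The Mest window at chr6:30737800-30738099, plus strand, held 17. The Peg3 window at chr7:6730370-6730669, minus strand, held 13. The Slc38a4 window at chr15:97055907-97056206, minus strand, held 5, below the median of 7 over all windows. The promoters thus ranged from very CG rich to CG poor. TGCCGC, the hexamer bound by the imprint keeper ZFP57, was searched on both strands. It occurred 2 times in the Mest window and 1 time in the Grb10 window, and it was in 11.6% of all windows. It was not found in the Phlda2, Peg3 and Slc38a4 windows. Of the genes not shown, Plagl1 held it 1 time in its window, and no Gnas window held it. A downstream Grb10 window held 9 CG and an upstream Mest window 8, both without the hexamer.

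The RNA libraries summed to between 641813 and 782026 FPKM (fragments per kilobase of transcript, scaled to library size). Read depth is not given in these files. Differences below are on the log2(FPKM + 1) scale, with the standard error from limma, and genes were called at an adjusted p under 0.05 over 15428 tested genes. All 10 genes passed the filter on low values. Chaf1a had 31.6 and 35.0 FPKM in KO EBs, against 31.7 and 32.1 FPKM in WT EBs, and 48.1 and 38.0 FPKM in KO ES cells, against 49.5 and 43.0 FPKM in WT ES cells. The genotype therefore rests on the labels, since a small coding lesion need not lower the transcript. The summed FPKM of 10 pluripotency markers was 5342 to 7587 in KO EBs and 291 to 523 in WT EBs, against 5734 to 5850 in KO ES cells and 5747 to 6196 in WT ES cells.

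Loss of p150 went with lower RNA of 9 of the 10 genes in EBs. KO EBs were called lower than WT EBs for every gene but Phlda2, and none was higher (0 also at an unadjusted p under 0.05, limma). Over all tested genes 25.9% were called lower and 20.0% higher, with 5391 lower and 2326 higher after libraries were rescaled to a common total, against 3992 and 3082 as deposited. Leaving out 1 library gave 6 to 9 genes called lower, the 6 without the second WT EB library. The median difference of the 10 genes was -1.89, against -0.064 over all genes. In bulk RNA, fewer cells of a type and less RNA per cell cannot be told apart. The plot of levels by library shows the values of every gene.

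**Figure D1:**
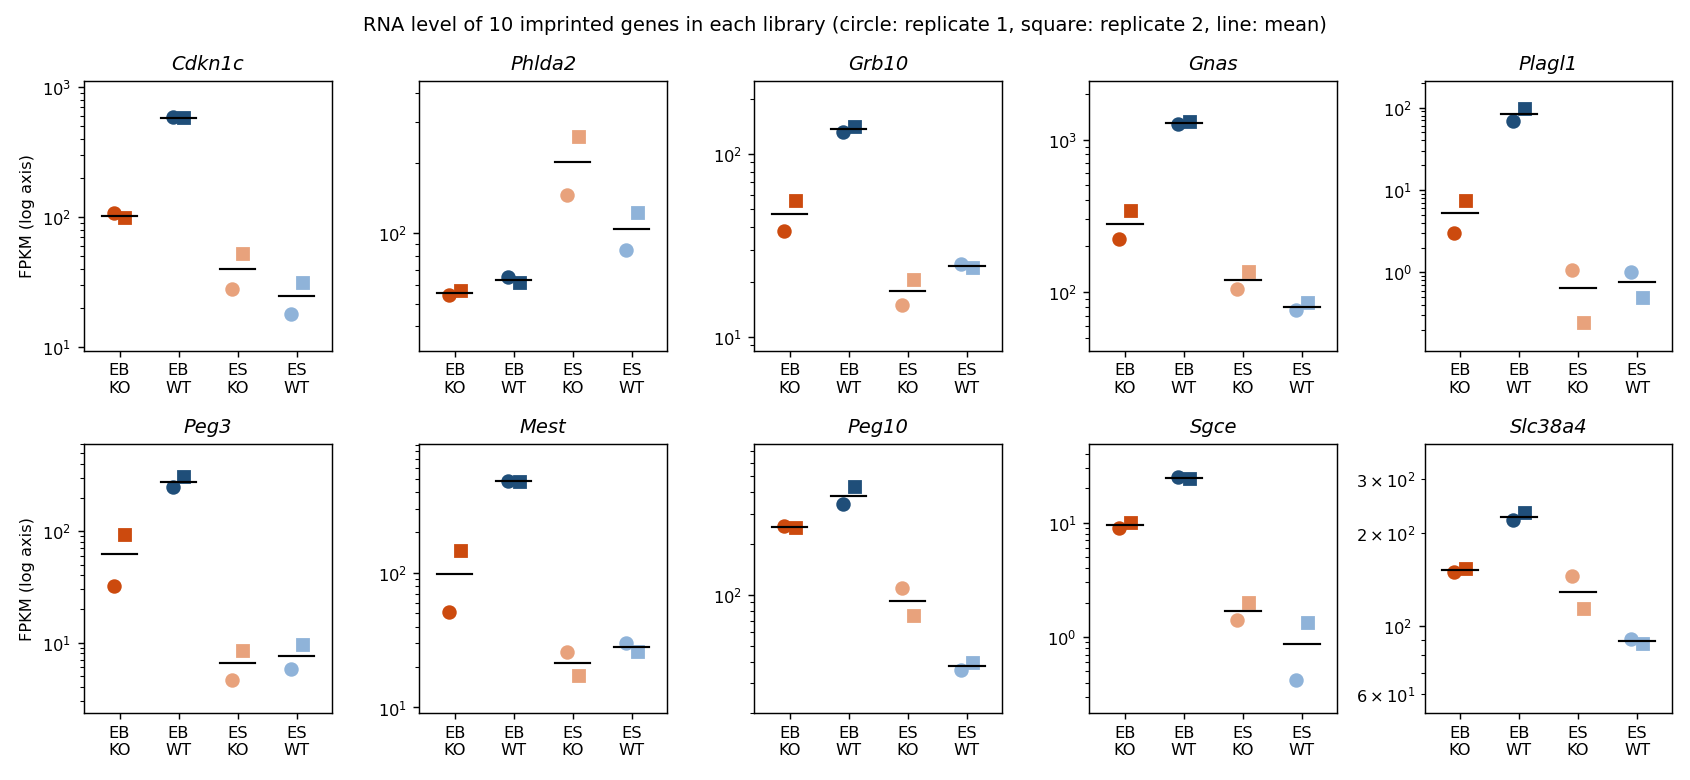
RNA level in FPKM on a log axis for each of the 10 genes, with 1 point for each of the 2 libraries of KO EBs, WT EBs, KO ES cells and WT ES cells, and the group mean. WT EBs stand highest for every gene but Phlda2, which stands highest in KO ES cells, with 146 and 259 FPKM.

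The maternally expressed genes are given first, together with Gnas, which is not maternally expressed as a whole. Cdkn1c, a cyclin-dependent kinase inhibitor (ENSMUSG00000037664.13, chr7:143458339-143461050, mm10), had 107 and 98.0 FPKM in KO EBs, against 587 and 581 FPKM in WT EBs. The groups were far apart and their replicates close. The difference was -2.50 ± 0.32 (SE, 2 libraries per group, limma adjusted p = 0.00144). Grb10, an adaptor protein that dampens insulin and IGF receptor signalling (ENSMUSG00000020176.17, chr11:11930508-12038683), had 37.7 and 55.7 FPKM in KO EBs, against 132.7 and 140.5 FPKM in WT EBs. Both KO libraries lay below both WT libraries, with a difference of -1.55 ± 0.21 (limma adjusted p = 0.0016). Gnas (ENSMUSG00000027523.19, chr2:174284320-174346744) had 224 and 339 FPKM in KO EBs, against 1265 and 1314 FPKM in WT EBs. Its difference was -2.22 ± 0.21 (limma adjusted p = 0.000539). FPKM sums all promoters of Gnas, so the G protein transcript and the imprinted transcripts are not separated. Phlda2, a small PH domain protein that limits growth of the placenta (ENSMUSG00000010760.5, chr7:143501545-143503150), had 54.5 and 56.8 FPKM in KO EBs, against 65.2 and 61.1 FPKM in WT EBs. Although the libraries did not overlap, the difference of -0.18 ± 0.27 did not pass the test (limma adjusted p = 0.624).

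Among the paternally expressed genes, Plagl1 had the largest difference in EBs. Plagl1 encodes a zinc finger transcription factor (ENSMUSG00000019817.18, chr10:13060504-13131694). It had 3.05 and 7.41 FPKM in KO EBs, against 68.8 and 97.5 FPKM in WT EBs, a difference of -3.83 ± 0.41 (limma adjusted p = 0.000829). Peg3, a large zinc finger protein (ENSMUSG00000002265.16, chr7:6703892-6730431), had 32.5 and 93.1 FPKM in KO EBs, against 247 and 307 FPKM in WT EBs. Mest, an alpha/beta hydrolase fold protein abundant in embryonic mesoderm (ENSMUSG00000051855.15, chr6:30723547-30748465), had 50.9 and 147 FPKM in KO EBs, against 483 and 478 FPKM in WT EBs. Both genes spread widely between the KO libraries, the second library being the higher, yet neither group overlapped the other. The difference was -2.30 ± 0.49 for Peg3 (limma adjusted p = 0.00867) and -2.46 ± 0.44 for Mest (limma adjusted p = 0.00453). Without the second WT EB library Peg3 lost its call (adjusted p = 0.0583, from 0.00194 to 0.0583 over all alternatives).

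Sgce, Peg10 and Slc38a4, also expressed from the paternal allele, were called lower as well. Sgce, the epsilon-sarcoglycan of the cell membrane (ENSMUSG00000004631.15, chr6:4674350-4747207), had 8.97 and 9.97 FPKM in KO EBs, against 24.9 and 23.9 FPKM in WT EBs, a difference of -1.28 ± 0.25 (limma adjusted p = 0.00651). Peg10, a retrotransposon-derived gene that the mouse placenta needs (ENSMUSG00000092035.8, chr6:4747306-4760517), lies head to head with Sgce. It had 254.5 and 245.4 FPKM in KO EBs, against 340 and 428 FPKM in WT EBs. Slc38a4, an amino acid transporter (ENSMUSG00000022464.14, chr15:96994820-97055956), had 149 and 153 FPKM in KO EBs, against 220 and 232 FPKM in WT EBs. Neither pair of groups overlapped. The difference was -0.61 ± 0.19 for Peg10 (limma adjusted p = 0.0374) and -0.58 ± 0.13 for Slc38a4 (limma adjusted p = 0.00931). With no filter on low values Peg10 was not called (limma adjusted p = 0.104). The Peg10 call ended without either KO EB library, the second WT EB library or either WT ES library, with adjusted p between 0.0572 and 0.191 there and between 0.0135 and 0.191 over all alternatives. The Slc38a4 call ended without the first KO EB library (adjusted p = 0.0563) or the second WT EB library (0.0526), in a range of 0.00325 to 0.0563.

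Markers of cell types moved with these differences, and their part in them was not tested. All 10 pluripotency markers were called higher in KO EBs. Of 10 mesenchyme markers 9 were called lower and 1 higher, with sums of 47.7 to 119 FPKM in KO EBs and 1279 to 1294 FPKM in WT EBs. All 10 cardiac markers were called lower, with sums of 31.3 to 281 FPKM in KO EBs and 3432 to 4702 FPKM in WT EBs, and Nppa was at 0 in both KO EB libraries. Of 10 blood and endothelial markers 9 were called lower, with sums of 76.1 to 99.2 FPKM in KO EBs and 733 to 2800 FPKM in WT EBs. Visceral endoderm markers summed to 1328 to 1538 FPKM in KO EBs and 1277 to 1426 FPKM in WT EBs, with 6 of 10 lower and 1 higher. Apoe made up most of that sum, with 1260 and 1368 FPKM in KO EBs, against 979 and 793 FPKM in WT EBs, and the other 9 markers summed to 67.5 and 169.8 FPKM in KO EBs, against 447 and 484 FPKM in WT EBs. Trophoblast markers summed to 530 to 689 FPKM in KO EBs and 616 to 686 FPKM in WT EBs, with 3 of 7 tested markers higher and 2 lower. Prl3d1 was at 0 in both WT EB libraries, and Tpbpa in both KO EB libraries.

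In ES cells none of the 10 genes was called between KO and WT by limma. Over all genes 0.421% were called higher and 0.0778% lower. At an unadjusted p under 0.05, 4 genes were higher in KO ES cells, namely Phlda2, Slc38a4, Gnas and Peg10, and 0 were lower. The share of all genes at that unadjusted threshold was not counted, so these 4 cannot be set against it. The median of the 10 differences was 0.54, against 0.022 over all genes. Peg10 stood nearest to the threshold, with 110 and 74.6 FPKM in KO ES cells, against 36.2 and 39.4 FPKM in WT ES cells. Its difference was 1.24 ± 0.19 (limma adjusted p = 0.0568). Without the second KO ES library the difference was 1.52 and was called (adjusted p = 0.0414, from 0.0414 to 0.271 over all alternatives). Phlda2 had 146 and 259 FPKM in KO ES cells, against 85.3 and 122.5 FPKM in WT ES cells, with a wide spread in both groups (0.92 ± 0.27, limma adjusted p = 0.2).

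None of the remaining ES cell differences passed the test. Slc38a4 had 145 and 113 FPKM in KO ES cells, against 90.6 and 87.1 FPKM in WT ES cells, and Gnas had 104 and 135 FPKM, against 75.9 and 84.6 FPKM. Neither gene's groups overlapped. Cdkn1c had 27.9 and 51.8 FPKM in KO ES cells, against 17.8 and 31.1 FPKM in WT ES cells, so the groups overlapped. Sgce had 1.41 and 1.98 FPKM in KO ES cells, against 0.422 and 1.33 FPKM in WT ES cells. Grb10 had 15.0 and 20.5 FPKM in KO ES cells, against 25.0 and 23.9 FPKM in WT ES cells, and Mest had 25.9 and 17.1 FPKM, against 30.2 and 25.8 FPKM. Peg3 had 4.58 and 8.50 FPKM in KO ES cells, against 5.75 and 9.43 FPKM in WT ES cells. Plagl1 was near or below 1 FPKM in both groups, at 1.06 and 0.242 FPKM in KO ES cells, against 1.03 and 0.488 FPKM in WT ES cells.

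Between WT EBs and WT ES cells 9 of the 10 genes were called higher in EBs, where 36.1% of all genes were called higher and 24.8% lower (4478 higher and 5188 lower after quantile normalization, against 5576 and 3824 as deposited). The differences were 5.58 for Plagl1, 5.04 for Peg3, 4.57 for Cdkn1c, 4.06 for Mest, 3.99 for Gnas, 3.80 for Sgce, 3.30 for Peg10, 2.44 for Grb10 and 1.34 for Slc38a4, each with a limma adjusted p of 0.00024 or less. Their median over the 10 genes was 3.90, against 0.118 over all genes. Phlda2 ran the other way at -0.69 ± 0.27 and was not called (limma adjusted p = 0.0629). It was called lower without either KO ES library (0.0152 for each) or the first WT ES library (0.046), in a range of 0.0152 to 0.294 over all alternatives.

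These differences share the WT EB libraries with the comparison of KO and WT EBs. Between KO EBs and KO ES cells 8 genes were called higher and 1, Phlda2, lower, where 17.1% of all genes were called higher and 12.0% lower (2159 higher and 2348 lower after rescaling, against 2640 and 1847 as deposited). Peg3 differed by 2.95, Mest by 1.99, Sgce by 1.97, Plagl1 by 1.87, Peg10 by 1.45, Cdkn1c by 1.40, Grb10 by 1.34 and Gnas by 1.21, each with a limma adjusted p of 0.0189 or less. The median of the 10 genes was 1.43, against 0.069 over all genes. Phlda2 differed by -1.79 ± 0.27 (limma adjusted p = 0.00511), and Slc38a4 differed by 0.24 ± 0.13 (limma adjusted p = 0.193). The Cdkn1c call ended without either KO EB library or the first KO ES library, at adjusted p of 0.0724 to 0.082 in a range of 0.0147 to 0.082. The Plagl1 call ended without the second KO EB library (0.0731) or the second KO ES library (0.0753), in a range of 0.0145 to 0.0753. The Mest call ended without the second KO ES library (0.0785, in a range of 0.00332 to 0.0785).

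**Figure D2:**
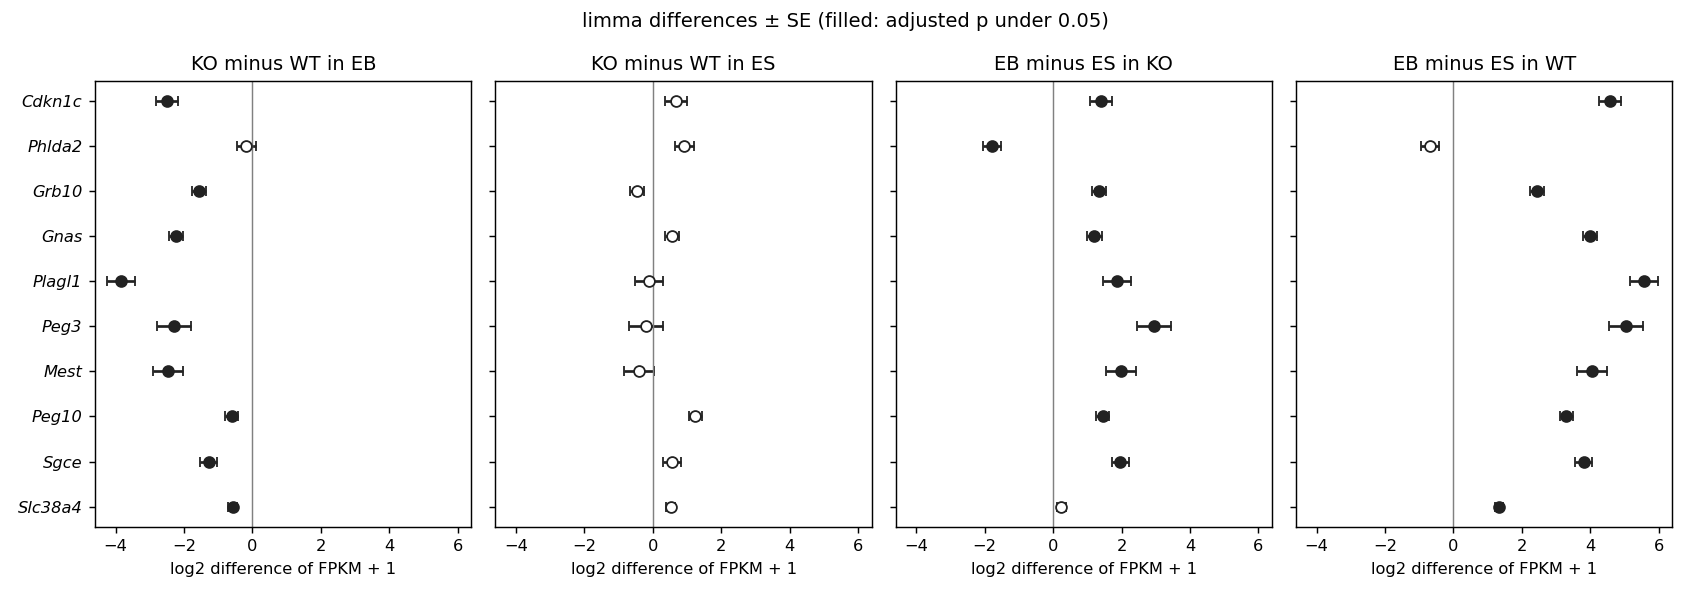
Differences in log2(FPKM + 1) with standard errors from limma for each of the 10 genes, with KO minus WT in EBs and in ES cells and EB minus ES in KO and in WT cells. The EB differences between KO and WT lie between -3.83 and -0.18, and the ES differences between -0.46 and 1.24.

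The KO effect in EBs was set against the KO effect in ES cells by their difference, EB effect minus ES effect. It was called negative for 8 of the 10 genes, where 18.6% of all genes were called negative and 12.7% positive (3843 negative and 1440 positive after rescaling, 2310 and 2471 after quantile normalization, against 2874 and 1959 as deposited). Plagl1 and Cdkn1c had the widest gaps, -3.71 ± 0.58 (limma adjusted p = 0.00584) and -3.17 ± 0.45 (limma adjusted p = 0.00489). Peg3 (-2.10 ± 0.70, limma adjusted p = 0.058) and Phlda2 (-1.10 ± 0.39, limma adjusted p = 0.0678) did not pass. Peg3 passed without the second KO EB library (adjusted p = 0.0121, from 0.012 to 0.164 over all alternatives), and Phlda2 without the first KO ES library (0.0192, from 0.0192 to 0.183). The Grb10 call held among the fits with 1 library left out only without the second KO EB or the first KO ES library (0.0126 to 0.0903 over all alternatives). The Mest call held among those fits only without either KO EB library (0.00392 to 0.133).

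H3K27me3 was then compared for each gene. With 1 library per group there is no test and no replicate check. Values are the authors' signal per gene, compared as log2 ratios after adding 0.5 and called past 2-fold. The authors labelled the values RPKM (reads per kilobase, scaled to library size) on promoters. The extent of that promoter window is not given in the sources used here. Despite the label, values ran with locus length (Spearman's rho 0.588 to 0.686 over 17759 genes), so only ratios of the same gene are compared. Of the 10 genes 9 reached the minimum value of 1 in at least 1 library. Mest did not, with values of 0.587 in KO EBs, 0.44 in WT EBs, 0.56 in KO ES cells and 0.374 in WT ES cells.

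Cdkn1c, Phlda2 and Grb10 were past 2-fold lower in H3K27me3 in KO EBs than in WT EBs, and none of the 9 genes was past 2-fold higher. Over 13669 genes 7.62% were lower and 3.39% higher. Cdkn1c had a signal of 7.23 in KO EBs, against 23.6 in WT EBs, and 3.23 in KO ES cells, against 4.32 in WT ES cells. Phlda2 had 1.84 in KO EBs, against 5.76 in WT EBs, and 0.4 in KO ES cells, against 0.827 in WT ES cells. Grb10 had 42.2 in KO EBs, against 96.5 in WT EBs, and 35.5 in KO ES cells, against 49.4 in WT ES cells. The log2 ratios of KO to WT EBs were -1.64 for Cdkn1c, -1.42 for Phlda2, -1.18 for Grb10 and -0.80 for Gnas, whose signal was 28.4 in KO EBs, against 49.9 in WT EBs. Cdkn1c and Phlda2 are short genes, and 24.4% of genes under 10 kb were past 2-fold lower. The WT EB library also stood apart in its smallest step between values, 0.04 against 0.0267 in the other 3, and the part of this in the ratios was not tested.

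The paternally expressed genes with measurable H3K27me3 had values above or near WT in KO EBs. Sgce had 9.23 in KO EBs, against 4.96 in WT EBs. Plagl1 had 7.34 in KO EBs, against 4.08 in WT EBs, and Peg3 had 2.43, against 1.24. Their log2 ratios were 0.83, 0.78 and 0.75, none past 2-fold. Peg10 had 0.747 in KO EBs, against 0.44 in WT EBs (0.41), and Slc38a4 had 1.87, against 1.56 (0.20). The split by parental expression was made after the values were seen and is a description only.

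In ES cells no gene was past 2-fold in H3K27me3 between KO and WT, where 0.410% of all genes were higher and 0.607% lower. The log2 ratios of KO to WT ES cells ran from -0.56 for Phlda2 to 0.68 for Plagl1. Between WT EBs and WT ES cells Cdkn1c (2.32), Phlda2 (2.24) and Gnas (1.36) were past 2-fold higher, where 12.7% of all genes were. Among genes under 10 kb that share was 30.9%. Sgce (-2.25) and Peg10 (-1.21) were past 2-fold lower, where 6.20% of all genes were. Sgce had 4.96 in WT EBs, against 25.5 in WT ES cells, and 0.0293% of genes had a lower ratio. Peg10 had 0.44 in WT EBs, against 1.68 in WT ES cells. Its values are small, and with 1 added in place of 0.5 it was not past 2-fold. Between KO EBs and KO ES cells Phlda2 (1.38) and Cdkn1c (1.05) were past 2-fold higher, where 5.57% of all genes and 16.3% of those under 10 kb were, and 0 genes of the 9 were past 2-fold lower, against 0.534% of all. Cdkn1c was not past 2-fold there with 1 added or relative to the median of all genes. Sgce stood at -0.92 there, with 9.23 in KO EBs, against 17.9 in KO ES cells. The comparisons within EBs and within WT cells share the WT EB library.

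**Figure D3:**
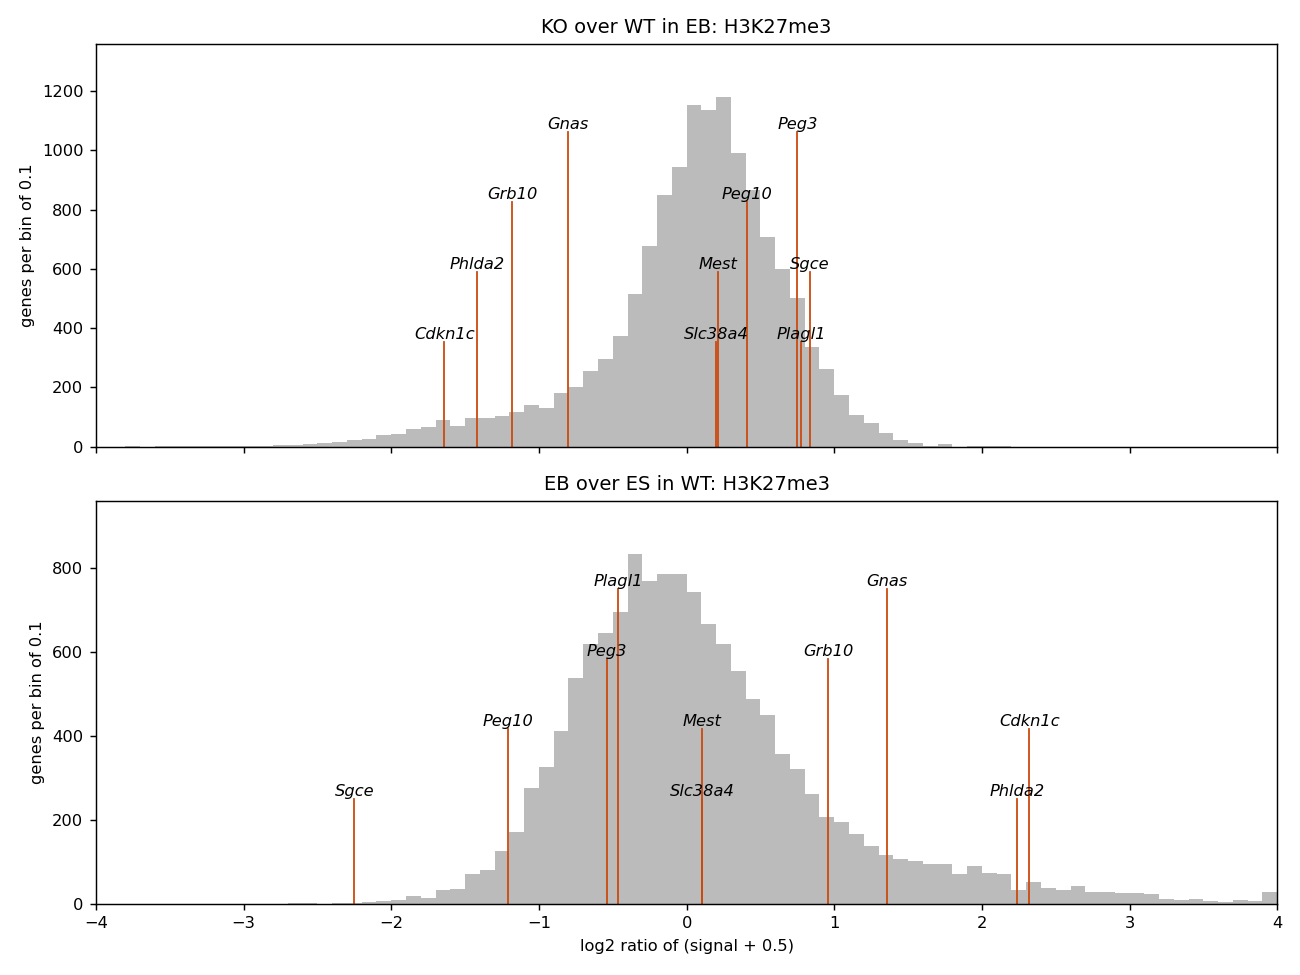
Log2 ratio of H3K27me3 signal for each of the 10 genes between KO and WT EBs and between WT EBs and WT ES cells, drawn as lines over a histogram of the same ratio for 13669 genes in bins of 0.1, with values past the axis in the end bins and line heights without meaning. Between KO and WT EBs Cdkn1c lies lowest at -1.64 and Sgce highest at 0.83.

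H3K4me3 signal was past 2-fold lower in KO EBs than in WT EBs over 2 of the 10 genes, where 2.80% of 16251 genes were lower and 7.31% higher. Cdkn1c had 8.96 in KO EBs, against 20.9 in WT EBs (log2 ratio -1.18), and Mest had 6.56, against 17.1 (-1.32). The log2 ratio was -0.83 for Plagl1, -0.72 for Peg3, -0.67 for Peg10, -0.57 for Grb10, -0.39 for Phlda2, -0.27 for Gnas, -0.09 for Sgce and -0.03 for Slc38a4. Every one of the 10 ratios was below 0, while the median over all genes was -0.124, and Sgce and Slc38a4 lay above that median. In ES cells no gene was past 2-fold between KO and WT, where 0.209% of all genes were higher and 0.0738% lower, and the ratios ran from -0.60 for Mest to 0.53 for Cdkn1c. Between WT EBs and WT ES cells Cdkn1c (1.90), Peg10 (1.57) and Peg3 (1.44) were past 2-fold higher, where 10.3% of all genes were, and none was past 2-fold lower, against 9.30%. Peg3 had 27.9 in WT EBs, against 9.92 in WT ES cells. Between KO EBs and KO ES cells no gene was past 2-fold, where 1.02% of all genes were higher and 0.609% lower. Peg10 came nearest, with 14.2 in KO EBs, against 7.63 in KO ES cells (0.85).

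**Figure D4:**
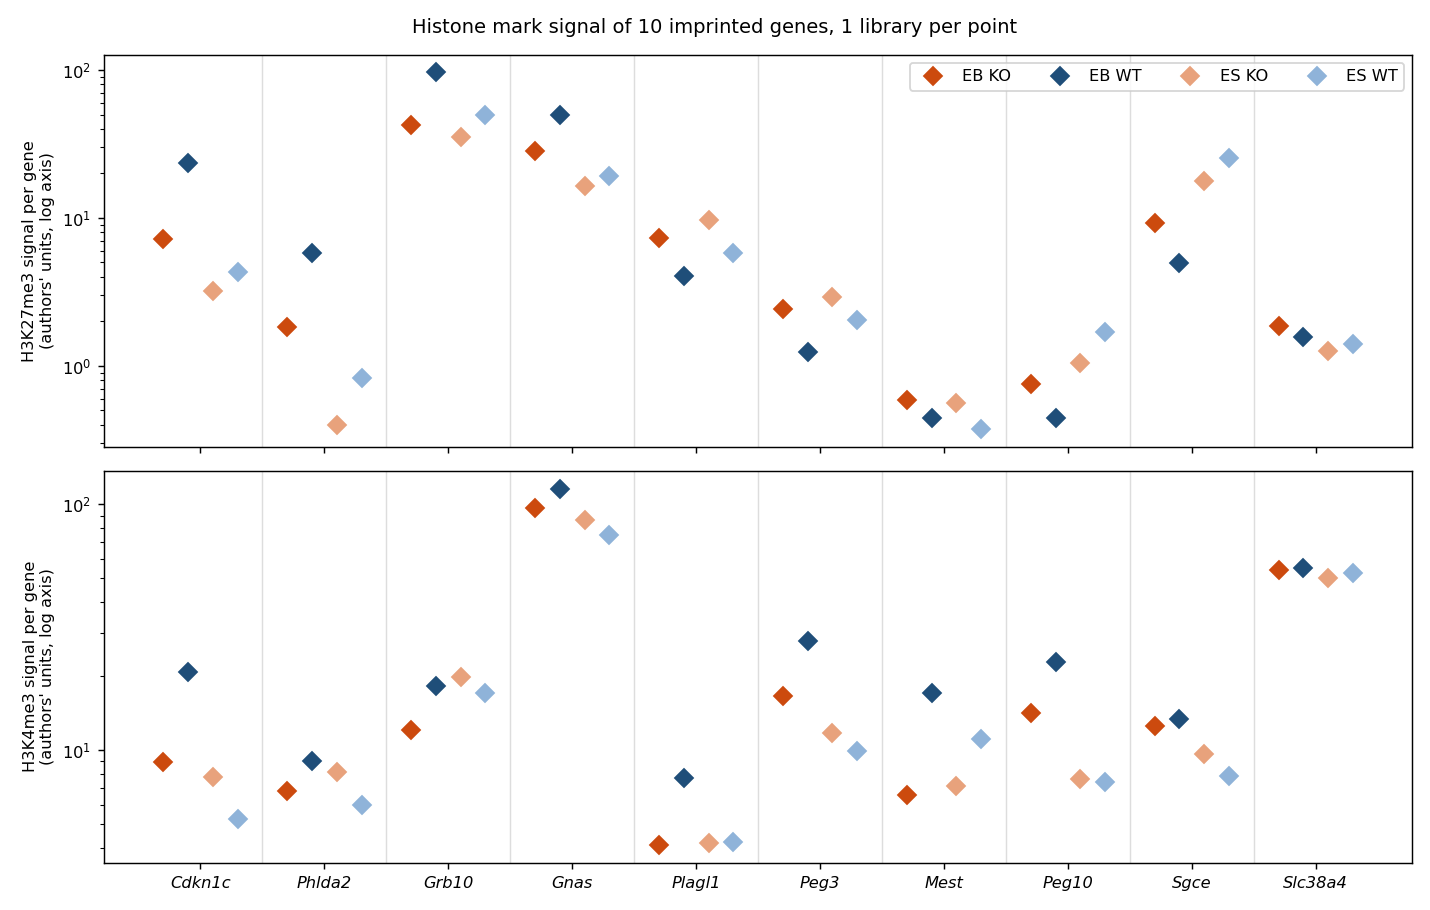
Signal of H3K27me3 and of H3K4me3 over each of the 10 genes in KO EBs, WT EBs, KO ES cells and WT ES cells, on a log axis with 1 library per group. Cdkn1c is highest for both marks in WT EBs, at 23.6 and 20.9.

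Genes beside the 10 at their loci were read from a list of 36 neighbours. Of the 31 tested for RNA, 14 were called lower and 4 higher in KO EBs than in WT EBs, where 25.9% of all genes were called lower and 20.0% higher. The median of the 31 was -0.365, against -0.064 over all genes. Zim1, next to Peg3, differed by -2.80 (limma adjusted p = 0.000828), Asb4, beyond Peg10, by -2.72 (0.0016), Casd1, beside Sgce, by -1.58 (0.00162) and the potassium channel gene Kcnq1 by -1.54 (0.000698). In ES cells none of the 31 was called between KO and WT by limma, and at an unadjusted p under 0.05 1 was higher and 0 were lower. No share of all genes was counted at that unadjusted threshold. The Kcnq1 domain on chromosome 7 holds both Cdkn1c and Phlda2. There Ascl2, a trophoblast transcription factor, had an H3K27me3 log2 ratio of 2.43 between WT EBs and WT ES cells, close to Cdkn1c and Phlda2. Slc22a18, which lies between Cdkn1c and Phlda2, had 0.64, and Nap1l4 and Osbpl5 had 0.16 and -0.27. The genes with high ratios are short, 2436 bp for Ascl2, 2712 bp for Cdkn1c and 1606 bp for Phlda2, while Slc22a18, Nap1l4 and Osbpl5 span 25599, 35528 and 68224 bp. Tssc4 in the same domain is also short, at 1845 bp, and had a ratio of 0.12. Its signal was small, 0.16 in WT EBs and 0.107 in WT ES cells. Cd81, at 15196 bp, had 0.79, and Kcnq1, at 320681 bp, had 0.32. Of all genes under 10 kb 30.9% were past 2-fold higher, and the part of length in these ratios was not tested. Kcnq1ot1, the noncoding RNA of this domain, was at most 0.137 FPKM in any library and was not tested. In the Peg10 and Sgce domain on chromosome 6 the H3K27me3 ratio of WT EBs to WT ES cells was below 0 for Asb4 (-1.14) and Casd1 (-0.86). It was also below 0 for Pon3 (-0.84), Pon2 (-0.75), Pon1 (-0.70), Ppp1r9a (-0.52) and Tfpi2 (-0.12), besides Sgce and Peg10. It was above 0 for Calcr (0.47), and the median over all genes was -0.054.

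**Figure D5:**
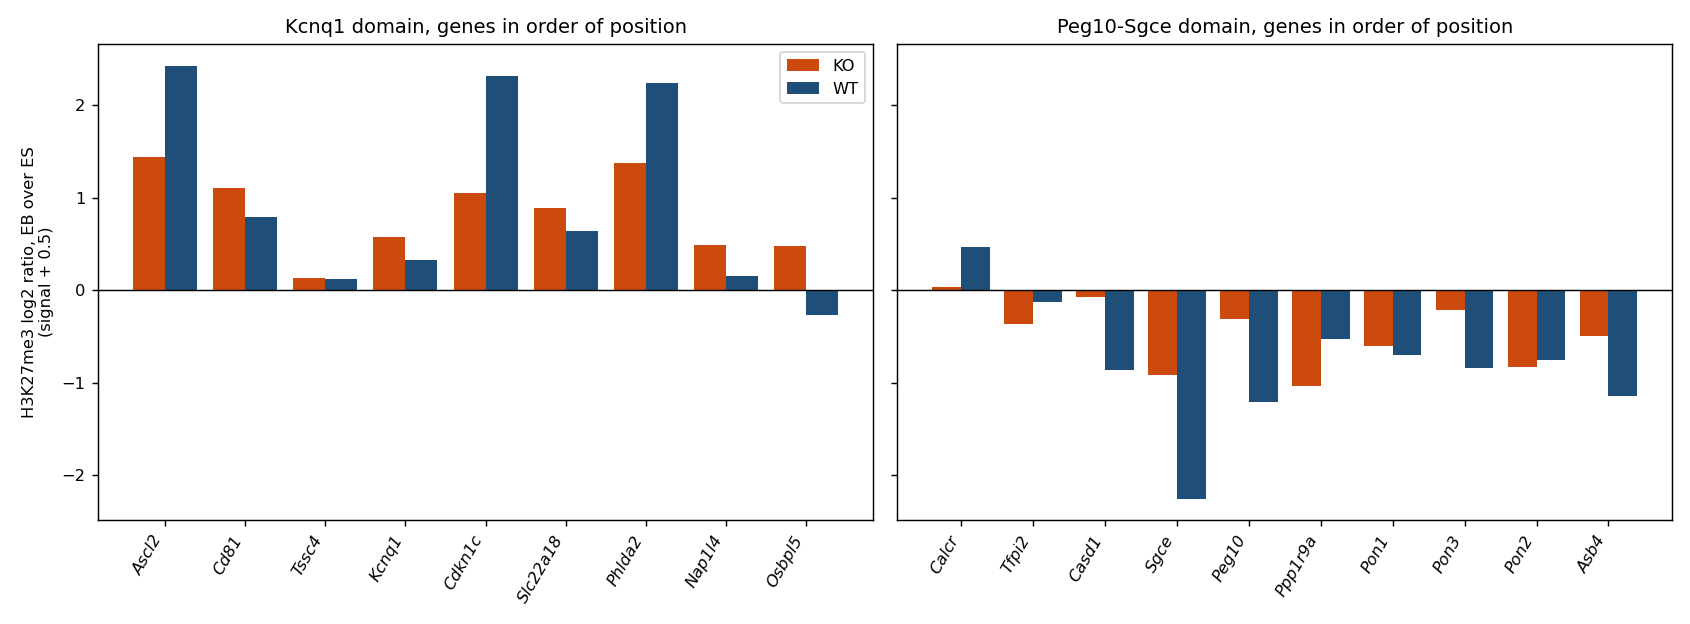
H3K27me3 log2 ratio of EBs over ES cells in KO and in WT cells, 1 library per group, for genes in order along the Kcnq1 domain and along the Peg10 and Sgce domain. In WT cells of the Kcnq1 domain Ascl2, Cdkn1c and Phlda2 stand at 2.43, 2.32 and 2.24, and in the Peg10 and Sgce domain Sgce stands at -2.25.

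Other imprinted genes and the machinery that sets or keeps imprints were read from lists. Of 26 tested imprinted genes outside the 10, 14 were called lower and 3 higher in KO EBs than in WT EBs, beside 25.9% lower and 20.0% higher over all genes. Igf2, the fetal growth factor, differed by -2.49 (limma adjusted p = 0.000839), Dcn, the proteoglycan decorin and also one of the mesenchyme markers, by -3.12 (0.00023), the noncoding RNA Airn by -2.08 (0.00104) and Sfmbt2 by 3.25 (0.000336). In ES cells 1 of the 26, Igf2, was called higher in KO cells (2.46) and none lower by limma. Over all genes 0.421% were called higher there and 0.0778% lower. Of the 26, 3 were higher and 2 lower at an unadjusted p under 0.05, a threshold without a counted share of all genes. Of 11 tested paralogs that are not imprinted, 4 were lower and 1 higher in KO EBs than in WT EBs, near the shares of 25.9% and 20.0% over all genes. Sgca, a sarcoglycan like Sgce, differed by -1.79, Grb14 by -1.97, Plagl2 by -1.21 and Cdkn1b by -0.70 (limma adjusted p = 0.0261), while Grb7 was higher by 1.38. Cdkn1a (-0.11), Plag1 (-0.40), Phlda1 (-1.22), Phlda3 (0.02), Slc38a1 (-0.03) and Slc38a2 (0.23) were not called. Of 13 genes for setting or keeping imprints 8 were called higher and 1 lower in KO EBs than in WT EBs. Over all genes 20.0% were called higher and 25.9% lower. Dnmt3l differed by 4.32 (limma adjusted p = 0.000336), Dnmt3b by 2.62 (0.000268), Zfp57 by 1.95 (0.000323) and Hells by 1.55 (0.000167). Between WT EBs and WT ES cells 9 of the 13 were called lower and 1 higher, where 24.8% of all genes were called lower and 36.1% higher.

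The genes whose pattern over the 8 RNA libraries lay nearest to each of the 10 were found by the root mean square difference of centred log2(FPKM + 1). Cdkn1c lay nearest to Igf2os (0.341) and then Gnas (0.347), farther than any of the other 9 genes lay from its own nearest. Plagl1 lay nearest to Cxcl12 (0.302), Peg3 to Nrep (0.255), Mest to Tbx20 (0.174), Grb10 to Zscan2 (0.0957) and Gnas to Bmp7 (0.136). Peg10 lay nearest to Serpine2 (0.158), Sgce to Prickle1 (0.172), Slc38a4 to Ptpn11 (0.0782) and Phlda2 to Catip (0.138). These are descriptions of likeness over 8 libraries in 4 groups.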

How the data were processed

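RNA was measured in 8 libraries and each histone mark in 4, while 4 input libraries were not analysed here. The deposited RNA values are FPKM, scaled by the authors to transcript length and library size. The deposited ChIP values are a signal per gene labelled by the authors RPKM on promoters, meaning reads scaled to window length and library size. How the authors computed that signal before deposit, and over what window extent, is not given in the sources used here. Nearly all values are whole multiples of a fixed step, and they ran with locus length. Whether the label describes them fully was not tested. The submitters' processing notes name the build mm10 and DESeq2, HTSeq, Bowtie2, STAR 2.6.0a and Cufflinks 2.2.1, without saying what each did, and do not say whether counting used strand, so overlaps such as Mest with Copg2 and Gnas with Nespas were not separated. Read depth is unknown, so no counting interval or detection limit is given.

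Columns were matched to samples by name, with 0 left unmapped. A symbol listed more than once was kept at its highest mean, which dropped 120 rows. The 15428 genes that reached 1 FPKM in 2 or more libraries were tested as log2(FPKM + 1) with limma 3.58.1 in R 4.3.3 (trended empirical Bayes, 4 groups of 2 libraries, 4 residual degrees of freedom, Benjamini-Hochberg adjustment), checked on simulated data. ChIP ratios used genes with a value of at least 1 in at least 1 library. No test was planned for the ChIP values, and the planned ratios used the values as deposited. Every one of the 10 genes is named, with up to 4 called genes per list by smallest adjusted p, every paralog, and H3K27me3 neighbours chosen after their values were seen. The genes and lists were chosen with earlier results of these data known. The numbers 1 and 2 of the replicates were not taken as pairs.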

Additional observations from a re-analysis of the deposited data

Results flagged for a closer look

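For 8 of the 10 genes the KO effect differed between EBs and ES cells by the test of that difference in limma, EB effect minus ES effect on the log2(FPKM + 1) scale. The difference was -3.71 for Plagl1 (adjusted p = 0.00584), -3.17 for Cdkn1c (0.00489), -2.78 for Gnas (0.00242), -2.07 for Mest (0.0431), -1.85 for Peg10 (0.00509), -1.84 for Sgce (0.011), -1.10 for Grb10 (0.0292) and -1.10 for Slc38a4 (0.00637). Both Grb10 and Mest lost the call in several fits with 1 library left out, at adjusted p up to 0.0903 for Grb10 and 0.117 for Mest, against a lowest p over all alternatives of 0.0126 for Grb10 and 0.00392 for Mest. For Cdkn1c, Gnas, Sgce, Peg10 and Slc38a4 the EB effect was negative and the ES effect positive, although no ES effect was called.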

How the results depend on the processing

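Of 240 ChIP ratios recomputed under another setting, 234 stayed within a band around the planned ratio. The other 6 left it on centring on the median of all genes. The band treated the steps between values as read counts, which was not tested, and it was wide for small values. Mest and Peg10 had 11 steps of H3K27me3 in WT EBs, so staying within the band says little there. Of 740 RNA differences of single genes recomputed under another setting, 689 kept direction and call, 36 lost the call, 11 gained one and 4 reversed. The reversals were of uncalled KO effects in ES cells, with Plagl1 between -0.48 and 0.25 (0.25 without the second KO ES library, 0.11 without the first WT ES library) and Peg3 between -0.59 and 0.18 (0.18 without the first KO ES library, 0.11 without the second WT ES library). Leaving out 1 library gave 6 to 9 genes called lower between KO and WT EBs, 0 to 1 genes called higher between KO and WT ES cells, and 0 to 1 called lower between WT EBs and WT ES cells. The count lower between WT EBs and WT ES cells was also 1 with the replicate block and with only the 4 libraries compared, in each case Phlda2. Without a filter on low values 5 genes, not 8, were called higher between KO EBs and KO ES cells, and 6 with only the 4 libraries compared, where Plagl1 (adjusted p = 0.0608) and Mest (0.0728) lost their calls. With a pseudocount of 1, H3K27me3 was past 2-fold lower for 1 gene between WT EBs and WT ES cells, and higher for 1 gene between KO EBs and KO ES cells. Centring on the median of all genes also gave 1 gene there. The causes were not tested.

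Same-numbered replicates correlated at 0.0678 to 0.311 in their deviations from group means, so the numbers were not taken as pairs. With the replicate block Peg10 lost its call between KO and WT EBs (adjusted p = 0.0525) and Mest its call for the difference of KO effects (0.0585), while Peg3 (0.012) and Phlda2 (0.044) gained one for that difference and Phlda2 one between WT EBs and WT ES cells (0.038).

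Without the first KO EB library 2464 genes were called lower and 1826 higher between KO and WT EBs, against 3992 and 3082 with all libraries. Without the second WT EB library 2585 were called lower. With a minimum mean of 5 FPKM 2321 were called lower. Quantile normalization gave 3500 lower and 3601 higher there, and 5188 lower and 4478 higher between WT EBs and WT ES cells, against 3824 and 5576. In ES cells leaving out 1 library gave 2 to 38 genes higher and 4 to 10 lower, against 65 and 12. Rescaling moved the median of all genes to -0.243 between KO and WT EBs, against -0.064, and quantile normalization moved it to -0.109 between WT EBs and WT ES cells, against 0.118. The ChIP values have 1 library per group, so no spread is known.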

Other observations

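The second KO EB library was higher than the first for 8 of the 10 genes, with a median gap of 0.345 in log2(FPKM + 1), while over all tested genes 52.2% were higher in the second with a median gap of 0.0142. The cardiac marker sum was 31.3 FPKM in the first KO EB library and 281 FPKM in the second, and the mesenchyme sum was 47.7 and 119 FPKM. The pluripotency sum was 7587 FPKM in the first and 5342 FPKM in the second.

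Usp29, which starts beside Peg3 on the opposite strand, had an H3K27me3 signal of 37.2 in KO EBs, against 15.1 in WT EBs, a log2 ratio of 1.27. Its RNA was 4.08 and 7.25 FPKM in KO EBs, against 20.1 and 18.0 FPKM in WT EBs. Cobl, next to Grb10, had an H3K27me3 signal of 28.3 in KO EBs, against 62.9 in WT EBs, and 11.6 in KO ES cells, against 9.66 in WT ES cells. Its RNA was 7.41 and 5.45 FPKM in KO EBs, against 3.38 and 3.74 FPKM in WT EBs. Klf14, beyond Mest, had an H3K27me3 signal of 4.22 in KO EBs, against 13.4 in WT EBs. Npepl1, near Gnas, had an H3K27me3 signal of 9.07 in KO EBs, against 2.40 in WT EBs, and Ascl2 had 5.71, against 19.6. Of 26 neighbours that reached the minimum value, 2 were past 2-fold higher in KO EBs than in WT EBs and 3 lower. Over all genes 3.39% were higher and 7.62% lower. The neighbours named here were chosen after their values were seen.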
